A study of Triticum aestivum with 15 samples.

Results

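Of the 61115 wheat probe sets examined, 200 were chosen for a trough of expression at 12 hours after imbibition (HAI), between higher levels in the dry seed and in the seed at 24 HAI. For every probe set, 16 was added to each intensity, log2 was taken, and the 3 arrays of each stage were averaged. The dip score of a probe set was the lower of its means at 0 and 24 HAI, minus its mean at 12 HAI. The 200 probe sets with the highest scores were kept, and they are called members below. A probe set is the group of probes that reads a single transcript sequence, and its intensity is the brightness summarized from those probes.

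Whole seeds of the bread wheat cultivar Jimai 20 were compared as dry seeds (0 HAI) and after 12, 24, 36 and 48 hours of imbibition, with 3 arrays for each of the 5 stages, labelled as biological replicates. Per the labels, seeds lay submerged in sterile water until 12 HAI and were then moved to dishes with a moderate amount of it, so hours of imbibition and the end of submersion cannot be told apart at that stage. By the study's methods the radicle had broken the seed coat at about 24 HAI, root and shoot were plain at 36 HAI, and the shoot was green at 48 HAI. The number of seeds behind an array is not given in the sources used here, and in whole seeds fewer cells of a type and less RNA per cell cannot be told apart.

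A dry cereal grain holds messenger RNA that was stored while the grain matured, and many of these messages are lost during imbibition. New transcription starts in the embryo and the aleurone as water enters, and it supplies the messages for enzymes that open cell walls, for protection against microbes and for growth of the seedling. A level measured at a given hour is the balance of both, so a transcript can be plentiful in the dry seed, scarce early in imbibition and plentiful again after it.

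Only 13 of the 200 members had a gene symbol or a description (2.18% of all probe sets had either), so most members are described below by their probe set name. The named members held secreted proteins of pathogen defence, a glucan-splitting enzyme, a lipid-transfer protein and a flavoprotein, besides 7 genes whose symbol carried no description. Several descriptions are matches to rice genes.

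The score ran from 3.56 to 1.60 among the members, with a median of 1.86, against a median of -0.25 over all probe sets. The limit cut through a continuous range. The last members were Ta.635.2.A1_a_at, TaAffx.111725.1.S1_at and Ta.8844.1.S1_at, all with a score of 1.60, and the first probe sets outside, TaAffx.113545.1.S1_at, TaAffx.79442.3.S1_at and TaAffx.97376.1.S1_at, also had 1.60. A score of at least 1.0 was reached by 1312 probe sets, while 1401 had the mirror pattern, a mean at 12 HAI at least 1.0 above the higher of its neighbours. With the arrays as deposited, deep troughs were fewer than high peaks: 199 probe sets passed 1.6 for the dip and 457 for the peak. These counts depend on the scaling of the arrays and were not taken under other scalings. The median of 12 minus 0 HAI over all probe sets was -0.23 as deposited and 0.70 with arrays scaled to poly-A controls.

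The median of the members' mean intensities was 229 in the dry seed and 40.2 at 12 HAI, and it then ran to 285, 403 and 291 at 24, 36 and 48 HAI. Over all probe sets it was 89.8, 66.4, 65.5, 67.0 and 66.7. The choice of members fixed the trough itself: 196 members were called lower at 12 than at 0 HAI (12.8% of all probe sets were) and 196 were called higher at 24 than at 12 HAI (13.3% of all), at a limma adjusted p under 0.05. All 3 arrays of 12 HAI lay below all 6 of 0 and 24 HAI in 190 members, and in 5.64% of all probe sets. These counts describe how the members were chosen.

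**Figure D1:**
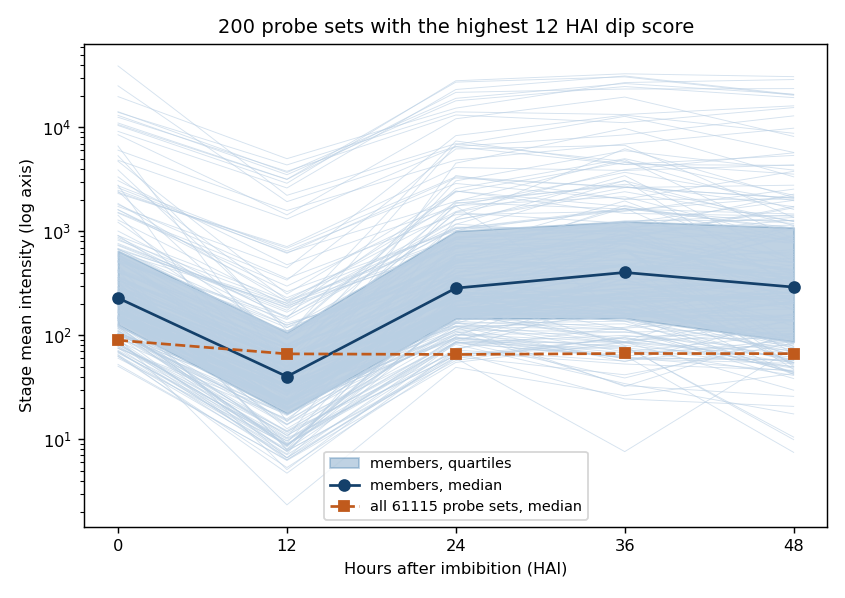
Mean intensity of each of the 200 members (thin lines, log axis) against hours after imbibition, with the median (dark line) and quartiles (band) of the members and the median of all 61115 probe sets (dashed). The member median falls from 229 to 40.2 at 12 HAI, returns to 285 at 24 HAI and peaks at 403 at 36 HAI, while the median of all probe sets stays between 65.5 and 89.8.

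Many troughs reached the dim end of the arrays. The deposited table gives no detection call, so an intensity of 32 was taken as a floor below which a ratio is given only as a bound. At 12 HAI 86 members had a mean under 32, as did 34.6% of all probe sets. For these 86 the median bound was at least 3.07-fold for 0 over 12 HAI and at least 3.58-fold for 24 over 12 HAI, and their median score of 1.83 was close to the 1.89 of the other 114. Arrays of the same stage correlated with Pearson's r of 0.930 to 0.969 across probe sets, on log2 values. The median ratio of SD to mean over the 3 arrays at 12 HAI was 65.0% in the 86 dim members.

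The array of 12 HAI replicate 2 was dimmer over the members than its neighbours. Medians over the members were 38.6, 24.1 and 40.1 on the 3 arrays of 12 HAI, 246, 231 and 225 at 0 HAI and 266, 293 and 291 at 24 HAI. Over all probe sets the medians on the 3 arrays of 12 HAI were 68.5, 69.4 and 73.4. Scaling to a common trimmed mean holds such medians close, so they cannot show whether an array was dim before scaling. The hybridization controls of replicate 2 lay 0.33 log2 units above their mean over all arrays, against -0.14 and -0.21 for replicates 1 and 3. The part of this in the lower member values was not tested. Replicate 2 was the lowest of the 3 arrays at 12 HAI in 85 members, replicate 1 in 63 and replicate 3 in 52. The same counts over all probe sets were not taken, and the members were chosen for low values on these arrays. Of the 200 members, 135 remained among the 200 highest scores without 12 HAI replicate 2, 138 without replicate 1 and 141 without replicate 3.

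At the bright end, 14 members kept a mean intensity of at least 1000 at 12 HAI, where the 3 arrays agreed closely (the SD was at most 20.2% of the mean). In these 14 the intensity at 0 HAI was 3.20 to 17.6 times that at 12 HAI, and at 24 HAI 3.06 to 9.68 times. All 3 arrays of 12 HAI lay below those on either side in each of the 14, and in 5.64% of all probe sets. The rule chose the members on these arrays, so the ratios and the lack of overlap describe the choice. The share among all probe sets of such brightness was not taken. TaAffx.12101.1.S1_at, which has no name here, was the brightest in the dry seed, with 40636, 38534 and 37916. It gave 2200.1, 2239 and 2231 at 12 HAI, 6817, 7214 and 6918 at 24 HAI, 4789, 4688 and 4661 at 36 HAI and 1702, 1529 and 1649.6 at 48 HAI. Its return was thus partial and passing, and at 48 HAI it lay below its own 12 HAI arrays. From 36 to 48 HAI it fell by 1.53 on the log2 scale (SE 0.10, limma adjusted p = 4.75e-06).

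The defence genes among the members came back in different ways. Pathogenesis-related (PR) proteins are secreted proteins that plants make in response to microbes, and PR-1 and PR-5 are among their families. LOC543422 was held by members of separate sequence clusters, both described as PR proteins. Its probe set Ta.62.1.S1_x_at, described as PRB1-3, was among the brightest members, with 19444, 20005 and 19909 at 0 HAI, 4926, 5111 and 4978 at 12 HAI, and 14856, 15743 and 15398 at 24 HAI. It reached 27269, 28447 and 25336 at 36 HAI and 29050.0, 28753 and 28831 at 48 HAI. The 12 HAI arrays lay close together and far below all others, and all 48 HAI arrays lay above those of 36 HAI, yet the rise from 36 to 48 HAI was 0.10 on the log2 scale (SE 0.10, limma adjusted p = 0.668) and did not pass the test.

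The other member of LOC543422, Ta.278.1.S1_x_at, described as PRMS, was far dimmer at 12 HAI, with 6.62, 12.8 and 4.41, after 524, 412 and 489 at 0 HAI. It stood at 105, 102 and 85.3 at 24 HAI, 534, 355 and 306 at 36 HAI and 928, 862 and 892 at 48 HAI. It thus climbed at every stage after 12 HAI and ended above the dry seed, with no overlap between 36 and 48 HAI. That last rise was 1.17 on the log2 scale (SE 0.20, limma adjusted p = 0.00280), and it was lost with the arrays scaled to poly-A controls (0.49, limma adjusted p = 0.0910). Against the floor, the level at 0 HAI was at least 14.8-fold that at 12 HAI, and the level at 24 HAI at least 3.03-fold. A probe set of the same sequence cluster that was not a member, Ta.278.1.S1_at, had means of 478, 19.9, 55.1, 281 and 614 from 0 to 48 HAI (score 0.82). Its arrays scattered widely, with an SD of 23.5 at 12 HAI and 51.8 at 24 HAI. Neither its change from 12 to 24 HAI (limma adjusted p = 0.365) nor its rise of 1.12 from 36 to 48 HAI (limma adjusted p = 0.296) passed the test.

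LOC543292, which carries the synonym PR5 and belongs to the thaumatin-like proteins by that name, gave 155, 298 and 357 at 0 HAI and 8.93, 22.9 and 6.12 at 12 HAI. It returned to 137, 126 and 81.8 at 24 HAI, 314, 326 and 408 at 36 HAI and 251, 320.2 and 416 at 48 HAI. The arrays of 36 and 48 HAI overlapped, and the difference was -0.10 on the log2 scale (SE 0.32, limma adjusted p = 0.923). The level at 0 HAI was at least 7.96-fold that at 12 HAI.

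LOC543330 is described as glucan endo-1,3-beta-glucosidase GII, an enzyme that splits the beta-glucan callose of plants and the glucans of fungal walls. Its probe set Ta.28.1.S1_at had 873, 887 and 876.5 at 0 HAI, and 149, 229 and 74.6 at 12 HAI. It then gave 1219, 1350.4 and 1296 at 24 HAI, 2582, 2545 and 2792 at 36 HAI, and 2699, 2830 and 2819 at 48 HAI. Its level at 36 and 48 HAI was thus above that of the dry seed on every array, with overlap between those last stages. The difference from 36 to 48 HAI was 0.08 on the log2 scale (SE 0.26, limma adjusted p = 0.930).

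LOC543420 is described as nonspecific lipid-transfer protein 1, of a family of small secreted proteins that bind lipids and are found in outer cell layers. It gave 600.2, 634 and 414 at 0 HAI, 36.6, 144 and 175 at 12 HAI, 834, 842 and 926 at 24 HAI, 1065, 935 and 1113 at 36 HAI, and 485, 333 and 360.1 at 48 HAI. It was highest at 36 HAI and lost that gain by 48 HAI, with no overlap between the arrays of the last stages. The fall was -1.38 on the log2 scale (SE 0.38, limma adjusted p = 0.0381), and it no longer passed in 12 of 25 alternatives, among them the replicate block and each removal of an array of 24, 36 or 48 HAI.

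The flavoprotein described as wrbA, a name that in Escherichia coli stands for a quinone-reducing enzyme, was read by TaAffx.91891.1.A1_at. It was among the most abundant members in the dry seed, with 5558, 5242 and 5235, and gave 171, 39.8 and 120.4 at 12 HAI. Its return stopped at 491, 512 and 550 at 24 HAI and 534, 501 and 420 at 36 HAI, and it dropped to 12.1, 30.7 and 98.4 at 48 HAI. Its highest array after 12 HAI gave 550, against a mean of 5345 in the dry seed. The fall from 36 to 48 HAI was -3.23 on the log2 scale (SE 0.47, limma adjusted p = 0.00115) and passed in all 25 alternatives.

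**Figure D2:**
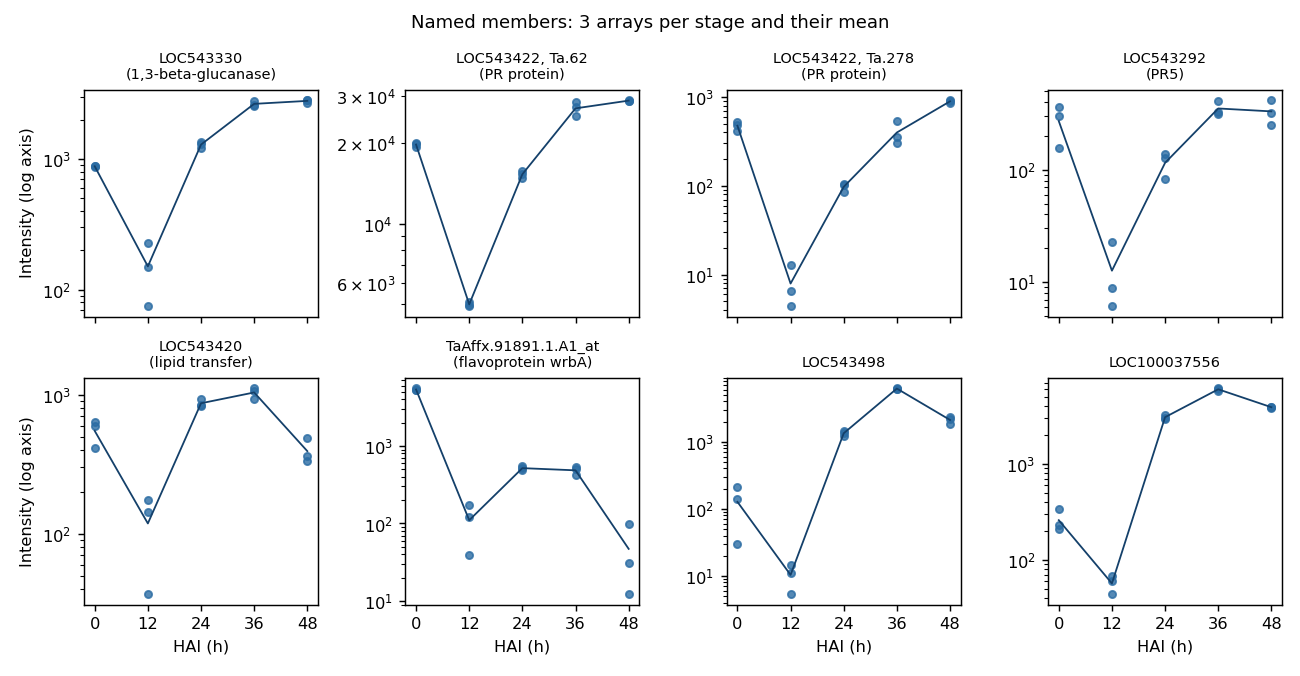
Intensity (log axis, its range differing between panels) against hours after imbibition for 8 named members, with 3 arrays per stage as points and their mean as a line. LOC543330 and LOC543422 end above the dry seed, LOC543420, LOC543498 and LOC100037556 peak at 36 HAI, and the wrbA flavoprotein regains 518 of its 5345 at 24 HAI.

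The other 7 named genes have symbols without a description. LOC543498, read by Ta.22673.1.S1_s_at, had 213, 30.3 and 139 at 0 HAI and 14.7, 11.0 and 5.28 at 12 HAI, and then 1226, 1435 and 1367 at 24 HAI, 6315, 6181 and 6202 at 36 HAI, and 1840.4, 2158 and 2366 at 48 HAI. Its later level was thus far above that of the dry seed, and the level at 24 HAI was at least 41.9-fold that at 12 HAI. The fall from 36 to 48 HAI was -1.56 on the log2 scale (SE 0.43, limma adjusted p = 0.0377) and was lost in 13 of 25 alternatives.

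LOC100037556, read by Ta.3361.2.S1_x_at, ran from means of 260 ± 69.8 at 0 HAI and 57.1 ± 12.1 at 12 HAI (SD, n = 3) to 3061 ± 167 at 24 HAI, 5972 ± 207 at 36 HAI and 3888 ± 87.8 at 48 HAI. Its fall from 36 to 48 HAI was -0.62 on the log2 scale (SE 0.17, limma adjusted p = 0.0409), lost in 14 of 25 alternatives. Other probe sets of LOC100037556, which were not members, scored 0.95, 0.20 and -0.57. In that order their means at 0 and 12 HAI were 52.7 and 19.4, 104 and 103, and 33.3 and 64.3. Only the first of these fell clearly, so the trough was not shared by all probe sets of this gene. LOC543317 (Ta.959.1.S1_at), the named member with the highest score, fell from 415 to 7.96 and returned to 163, 260.1 and 366 at 24, 36 and 48 HAI. LOC543097, LOC778385, LOC542876 and LOC778388 had means between 7.10 and 54.9 at 12 HAI, and none of these 4 or LOC543317 passed the test from 36 to 48 HAI, with limma adjusted p from 0.116 to 0.658. Probe sets of LOC778385 (Ta.7151.1.S1_x_at) and LOC542876 (Ta.24307.1.A1_at) that were not members scored 0.56 and 0.33.

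Annotated genes of the same kinds were counted in short lists made by words, where members were 200 of all 61115 probe sets. Of 9 probe sets whose name or description matched words for defence proteins, 2 were members, both LOC543422. From 0 to 12 HAI 6 were called lower and 0 higher, and from 12 to 24 HAI 3 were called higher and 3 lower. Over all probe sets 13.3% were called higher and 14.8% lower from 12 to 24 HAI. The 6 falls and the 3 rises include both members, which the rule chose for that course. Ta.278.1.S1_at, also LOC543422, was among the 6 falls. LOC543292 was not found by the words for defence proteins. Of 4 probe sets for lipid metabolism, 1 was a member and 3 had a score of at least 1, the other pair being LOC543338, which holds a FabZ dehydratase domain of fatty acid synthesis (scores 1.32 and 1.19). Of 6 for wall and glucan enzymes, 1 was a member and the median score was -1.10, and 3 of the 6 (an expansin, a cellulose synthase and a xyloglucan enzyme) were already called higher at 12 than at 0 HAI. Another 2 of the 6, a chitinase and the member LOC543330, which the rule chose for its fall, were called lower. Over all probe sets 10.1% were called higher and 12.8% lower from 0 to 12 HAI. Lists for transporters (6 probe sets), transcription factors (10), kinases and signalling (8), amino acid metabolism (3), protein turnover (4), photosynthesis (9) and translation (2) held 0 members. Lists so short can hold 0 members at the shares given above, so nothing is read from this.

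Markers of seed tissues moved beside the members, and none of these was a member. The summed intensity of 11 gliadin and glutenin probe sets, storage proteins of the endosperm, was 18679 to 21518 on the arrays of 0 HAI, 10064 to 11658 at 12 HAI, 2280.3 to 2516 at 24 HAI, and 320.4 to 465 at 48 HAI. The sum of 18 probe sets for proteins of the mature embryo (found by the words Em, LEA, dehydrin and oleosin) fell from 626056 to 662891 in the dry seed to 271068 to 322153 at 12 HAI and 30061 to 35493 at 48 HAI. The sum of 3 for dividing cells rose from 6514 to 7925 at 0 HAI to 20342 to 20750 at 12 HAI and 38175 to 41653 at 48 HAI. None of these 3 sums had its lowest value at 12 HAI. An aleurone list had only 1 probe set, with 12.1 to 100.6 at 0 HAI, 4.29 to 9.99 at 12 HAI, 7.51 to 10.8 at 24 HAI, 29.3 to 65.2 at 36 HAI and 74.7 to 111 at 48 HAI. Its values at 12 and 24 HAI were under the floor of 32, so it says little of the aleurone. The alpha-amylase genes that the study lists were not found by the list words. In the study's values they were lower at 12 HAI than in the dry seed and far higher at 24 HAI. No probe set matched the words for green tissue. The part of cell type shares in the members' course was not tested.

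The member with the highest score, Ta.2784.1.A1_at (3.56, no name here), had 1099.8, 1387 and 1187 at 0 HAI, 68.3, 81.3 and 124 at 12 HAI, and 1795, 1847 and 1625 at 24 HAI. It then gave 3648, 3527 and 3923 at 36 HAI and 1817, 1936 and 2163 at 48 HAI. The last stages did not overlap, and the fall from 36 to 48 HAI was -0.90 on the log2 scale (SE 0.18, limma adjusted p = 0.00629). The next in rank, Ta.27834.1.S1_s_at (3.32), fell from 4728 to 249.9 and returned to 2440.2, 1733 and 1025 at 24, 36 and 48 HAI, all means of 3 arrays. Its probe set partner Ta.27834.1.S1_x_at was rank 10 and ran in parallel, with means of 914, 78.9, 542, 462 and 291.

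Ta.28764.1.S1_at, the third by score, showed a spike after its trough. It had 430.5, 479 and 621 at 0 HAI, 57.1, 67.1 and 25.5 at 12 HAI, 995, 1032 and 987 at 24 HAI, 2878, 3251 and 3151 at 36 HAI, and 206, 226 and 431 at 48 HAI. The 36 HAI arrays stood above all others, and the fall to 48 HAI was -3.43 on the log2 scale (SE 0.29, limma adjusted p = 3.33e-05). A second member of that sequence cluster, Ta.28764.1.S1_s_at, fell by 2.87 over the same interval (limma adjusted p = 0.000570). Probe sets of a cluster share sequence and are not independent readings.

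TaAffx.15327.1.S1_at, rank 7, took the opposite course and rose to its highest level at 48 HAI, with 3966, 3798 and 4002 at 36 HAI and 5604, 5675.5 and 5809 at 48 HAI. It had 166, 245 and 244 at 12 HAI after 3185.5, 3340.1 and 3508.5 in the dry seed. The rise from 36 to 48 HAI was 0.54 on the log2 scale (SE 0.14, limma adjusted p = 0.0289), but the call changed in 10 of 25 alternatives. It was lost with 1 added, with equal array medians, with hybridization controls and at each removal of an array of 36 or 48 HAI, and the difference turned to -0.17 when the arrays were scaled to the poly-A control RNA. The others among the 10 highest scores, Ta.11090.1.S1_at, Ta.25229.1.S1_at and the cluster Ta.10, did not pass the test from 36 to 48 HAI.

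Of the 200 members, 132 were within 1 log2 unit of the dry seed at 24 HAI, 48 were above it by more than 1 and 20 were below it by more than 1. Among all probe sets 11.7% were above and 20.3% below by that much. The cluster Ta.10 was of those that overshot. Ta.10.1.S1_a_at had 573, 565 and 564 at 0 HAI, 41.7, 67.1 and 95.6 at 12 HAI, and 3419, 3439 and 3486 at 24 HAI, and then held at 1947, 1982 and 2175 at 36 HAI and 2002, 2015 and 2101 at 48 HAI. Its peak was at 24 HAI, and the probe sets Ta.10.1.S1_x_at and Ta.10.2.S1_x_at ran alike, with 2445 and 7406 at 24 HAI.

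Most members were still above their trough at the last stage. In 193 of the 200 members the 48 HAI mean was above the 12 HAI mean (46.0% of all probe sets), and in 168 by more than 1 log2 unit (12.8% of all). All 6 arrays of 36 and 48 HAI lay above all 3 of 12 HAI in 152 members (15% of all). The rule fixed the low level at 12 HAI, so these counts describe the course and test nothing. The highest stage was 36 HAI in 72 members, 48 HAI in 48, 0 HAI in 46 and 24 HAI in 34. Against 24 HAI, the 48 HAI level was lower in the middle of the range, with a median difference of -0.21 (-0.0045 over all probe sets). By more than 1 log2 unit, 48 members were below their 24 HAI level and 21 above it (4.83% and 5.05% of all), and 81 members were above it by any amount (49.6% of all). From 0 to 48 HAI the median difference was 0.05 for members and -0.30 for all probe sets, with 55 members more than 1 log2 unit above the dry seed (13.5% of all) and 38 more than 1 below (22.2% of all).

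From 24 to 36 HAI, a contrast that shares the 24 HAI arrays with the rule, 34 members were called higher (2.41% of all probe sets) and 7 lower (3% of all). The median difference was 0.21, against -0.02 over all probe sets.

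The contrast of 48 with 36 HAI asked whether the level reached at 36 HAI was kept. Its log2 difference used no array that chose the members. Its SE and p-values used a spread pooled over all stages, so the calls are not free of those arrays. More members fell than rose: 47 were called lower and 10 higher, while 5.29% of all probe sets were called lower and 5.35% higher (limma, Benjamini-Hochberg adjusted p under 0.05 over 61115 probe sets). In percent, 23.5% of the members were called lower and 5% higher. The other 143 did not pass, and at an unadjusted p under 0.05 the counts were 81 lower and 20 higher. The median difference was -0.36 on the log2 scale for members and 0.02 for all probe sets, and all 3 arrays of 48 HAI lay below all 3 of 36 HAI in 87 members (14.1% of all) and above them in 35 (16% of all).

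The count of 10 rises depended on single arrays. It was 6 without 36 HAI replicate 1, 4 without 36 HAI replicate 2, 5 without 48 HAI replicate 1 or 2 and 6 without 48 HAI replicate 3, and 8 to 13 without any other array, while the falls ran from 32 to 51. Scaled to the hybridization controls the split was 56 lower and 3 higher, and scaled to the poly-A controls 115 lower and 1 higher. Those scalings moved the median of all probe sets in this contrast to -0.17 and -0.49. Relative to all probe sets the member median was -0.38 as deposited, -0.37 with equal array medians and after quantile normalization, -0.47 with hybridization controls and -0.55 with poly-A controls.

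**Figure D3:**
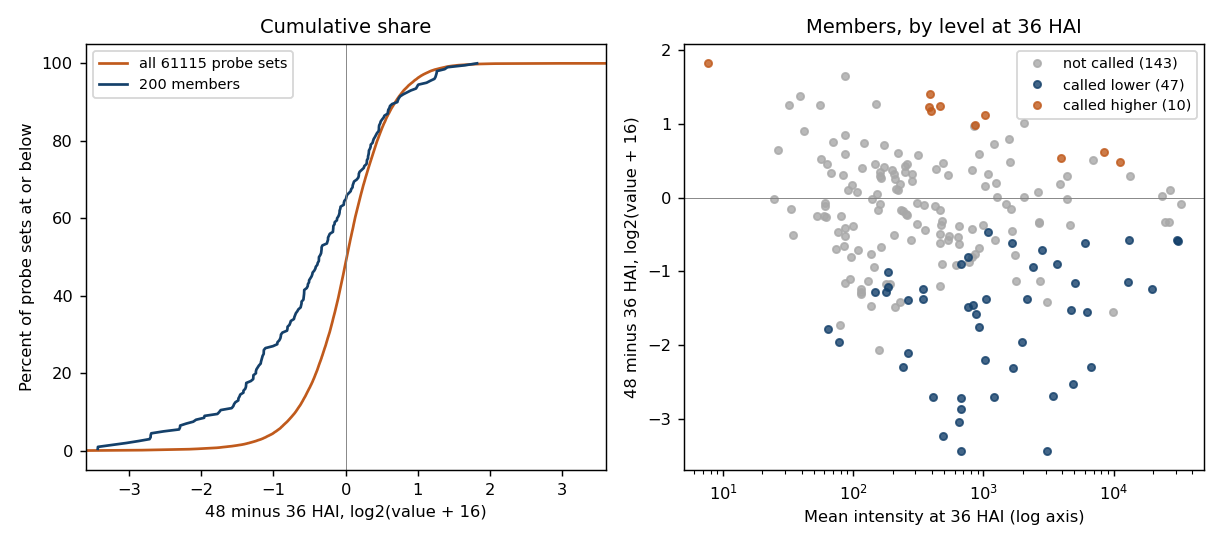
Left, cumulative percent of probe sets against the difference between 48 and 36 HAI in log2(value + 16), for the 200 members and all 61115 probe sets. Right, that difference for each member against its mean intensity at 36 HAI (log axis), coloured by limma's call: the 47 called lower reach -3.43 and 9 of the 10 called higher reach 1.41. The other, Ta.16966.1.S1_at, lies under the floor of 32 at 36 HAI, where its difference is not measured.

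Calls were more frequent in bright probe sets, and members were brighter than most. Of 60 members with a mean of at least 1000 at 36 HAI, 24 were called lower and 4 higher, while 16.3% and 11.8% of all probe sets at that level were. Between 300 and 1000 the counts were 14 and 5 of 50 (11.8% and 12.4% of all), between 100 and 300 they were 7 and 0 of 54 (5.92% and 7.31% of all), and between 32 and 100 they were 2 and 0 of 33 (1.92% and 2.18% of all). Of 3 members under 32, 1 was called higher. Among the 48 members that had overshot the dry seed at 24 HAI, 16 were called lower from 36 to 48 HAI and 0 higher. Among the 132 near the dry seed the counts were 23 and 7, and among the 20 below it 8 and 3. The classes were cut on 0 and 24 HAI arrays that the rule used, and the same counts over all probe sets were not taken by class. Without classes, 5.29% of all probe sets were called lower and 5.35% higher. The difference between these classes was not tested, and nothing is read from it.

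The deepest falls from 36 to 48 HAI were those of Ta.22862.1.S1_x_at (-3.43), Ta.28764.1.S1_at (-3.43), the wrbA flavoprotein (-3.23), Ta.22678.1.A1_a_at (-3.03) and Ta.28764.1.S1_s_at (-2.87). Ta.22862.1.S1_x_at had 662, 656 and 693 at 36 HAI and 57.6, 66.3 and 26.5 at 48 HAI, after 123, 26.2 and 61.1 in the dry seed. It therefore ended near its level in the dry seed. In Ta.22678.1.A1_a_at the 36 HAI arrays gave 667, 681 and 612 and the 48 HAI arrays 75.4, 67.4 and 55.2. These 5 falls passed in all 25 alternatives.

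A further pattern was a rise called from 24 to 36 HAI followed by a fall called from 36 to 48 HAI. It was seen in 18 members and in 0.821% of all probe sets, and nothing is read from this since its first contrast shares arrays with the rule. Ta.1700.1.S1_at had 4902 ± 265 at 36 HAI, between 1947 ± 20.6 at 24 HAI and 849 ± 149.8 at 48 HAI (SD, n = 3), and Ta.23167.1.S1_at had 3434 ± 29.8 between 1172 ± 55.1 and 519 ± 11.3. LOC543498 and LOC100037556 belonged to these 18.

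The largest rises called from 36 to 48 HAI in members with a 36 HAI mean above the floor of 32 were those of Ta.30727.1.S1_at (1.41), Ta.22831.1.S1_at (1.24), TaAffx.128618.1.S1_at (1.23) and LOC543422 in Ta.278.1.S1_x_at (1.17). TaAffx.128618.1.S1_at gave 414, 367 and 363 at 36 HAI and 784, 934 and 1041 at 48 HAI, after 71.7, 71.4 and 90.7 in the dry seed. Ta.30727.1.S1_at gave 400, 353 and 419 at 36 HAI and 1046, 1125 and 1014 at 48 HAI. The arrays of 36 and 48 HAI did not overlap in either. The call of TaAffx.128618.1.S1_at was lost with 1 added (limma adjusted p = 0.0510) and with poly-A controls (0.55, limma adjusted p = 0.106). The calls of Ta.30727.1.S1_at and Ta.22831.1.S1_at were each lost in 9 of 25 alternatives, among them each removal of an array of 36 or 48 HAI. Ta.16966.1.S1_at was also called higher, but its 36 HAI arrays gave 9.09, 6.27 and 7.51, all under the floor, against 62.5, 132 and 33.5 at 48 HAI, so the size of its rise is not given. With values under 32 set to 32 the difference was 1.03 and did not pass (limma adjusted p = 0.298), and the call was also lost without 36 HAI replicate 2 or 48 HAI replicate 2.

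Members came from 181 sequence clusters, the clusters of similar sequences that the probe set names give, and 35 members shared a cluster with another member in 16 clusters. Cluster Ta.9400 held 3 bright members: Ta.9400.1.S1_x_at had means of 14174, 3687, 19041, 26454 and 20820.5 from 0 to 48 HAI and Ta.9400.1.S1_at ran alike with 13060.1, 3509, 18030, 24723 and 19366. The third, Ta.9400.3.S1_x_at, ran from 8507 through 1441 and 12113 to 19591 at 36 HAI and 8195 at 48 HAI, a fall of -1.24 on the log2 scale (SE 0.14, limma adjusted p = 0.000218), while the others did not pass (limma adjusted p of 0.121 and 0.168). In cluster Ta.27457, 3 probe sets were members and the other 4 scored 1.08 to 1.43. In cluster Ta.5050 both members were higher at 48 than at 36 HAI, by 1.12 (limma adjusted p = 0.00148) and 1.26 (limma adjusted p = 0.0826), and only the first passed.

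Probe sets of the members' clusters that were not members were scored on the same arrays that chose the members. They also share sequence with the members, so their scores are a description and no independent reading. There were 134 of them, with a median score of 0.24. Of these, 63.4% had a score over 0 and 20.1% (27 probe sets) of at least 1, while over all probe sets the shares were 32.6% and 2.15%. The range was wide, from -3.18 to 1.56. The low end came from cluster Ta.24114, whose named probe sets LOC543210 and LOC543212 are gliadins and fell from stage to stage, from 880 and 5072 in the dry seed to 5.37 and 8.10 at 48 HAI. A member of that cluster with no name, Ta.24114.6.S1_s_at, had means of 341, 61.6, 217, 208 and 241. The name ending _x_at marks probes that may bind other transcripts too, and 40 members (20%) carried it, against 11.1% of all probe sets. Of the 14 bright members 8 did.

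The depth of the trough shrank on arrays that took no part in a choice. The 200 highest scores were chosen anew from replicates of 2 numbers and read on the arrays of the number left out. With replicate 1, 2 or 3 left out, the chosen 200 had median scores of 2.01, 1.99 and 2.04, and on the arrays left out 1.20, 0.95 and 0.99. The left-out score was over 0 in 166, 149 and 155 of 200, while 36.2%, 31.2% and 30.3% of all probe sets were over 0. It was over 1 in 107, 98 and 100, against 6.66%, 4.79% and 4.14% of all. These lists shared 124, 111 and 118 probe sets with the members.

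**Figure D4:**
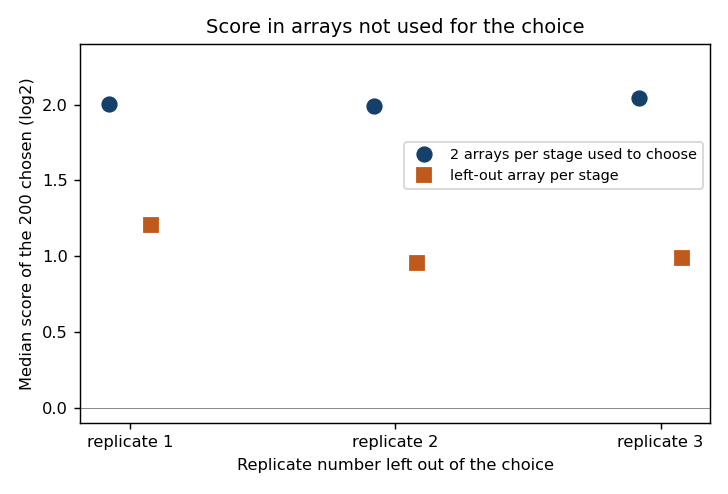
Median dip score (log2 units) of 200 probe sets chosen from 2 arrays per stage (circles) and read on the array per stage left out (squares), for each replicate number left out. The score drops from about 2.01, 1.99 and 2.04 to 1.20, 0.95 and 0.99 on arrays not used for the choice.

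The depth of the trough moved with the scaling of the arrays. From 0 to 12 HAI the median difference over all probe sets was -0.23 as deposited, 0.06 with equal array medians, -0.05 after quantile normalization, 0.21 scaled to hybridization controls and 0.70 scaled to poly-A controls. The member median in the same order was -1.99, -1.63, -1.90, -1.40 and -0.85. Relative to all probe sets it lay between -1.55 and -1.86. Under the alternatives in which the scores were recomputed, between 77 and 200 of the members stayed among the 200 highest.

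**Figure D5:**
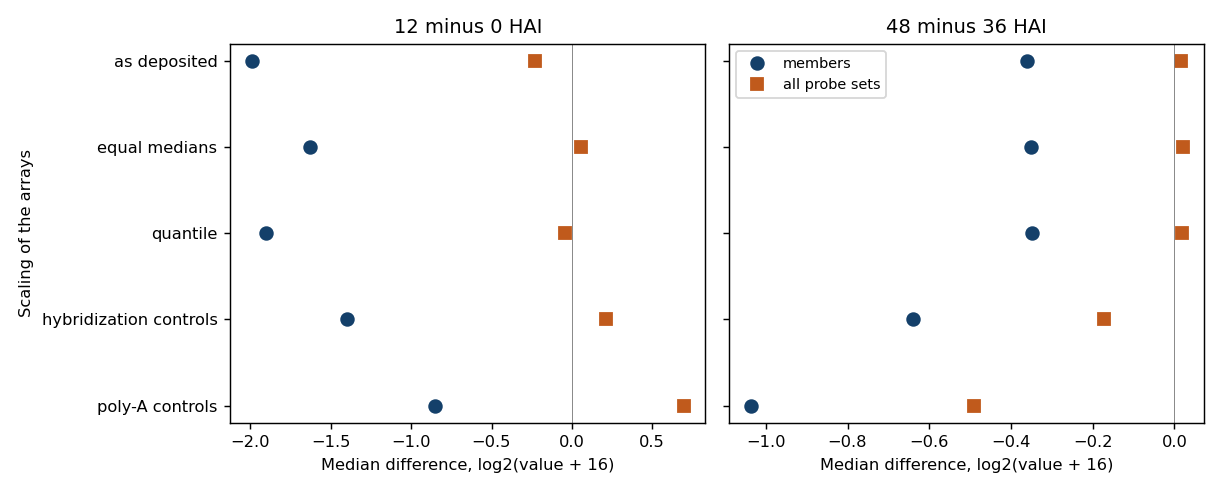
Median difference in log2(value + 16) of the 200 members (circles) and of all probe sets (squares) for 12 minus 0 HAI (left) and 48 minus 36 HAI (right), under 5 scalings of the arrays. The members lie below all probe sets in each, by 1.55 to 1.86 on the left and 0.37 to 0.55 on the right.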

How the data were processed

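Total RNA of whole seeds was hybridized to 15 Affymetrix Wheat Genome Arrays. The authors deposited an intensity on a linear scale. The submitters' processing notes name MAS5, and the study's methods name MAS 5.0 with scaling to a common trimmed mean and also RMA. The columns were taken as MAS 5.0 signals, though no file header says so. Of 61290 probe sets, those named AFFX or RPTR were left out and 61115 were ranked and tested. A linear model of 5 stage means on log2(value + 16) was fitted with limma 3.58.1 in R 4.3.3, with moderated variances, and p-values were two-sided and Benjamini-Hochberg adjusted over 61115 probe sets with a threshold of 0.05. It stood in for the ANOVA with a random variance model of the study's methods. SE are those of limma, on the log2 scale. No read depth applies, and the number of arrays limits the precision. The steps were tested on simulated data, and Python 3.11.15 drew the figures.

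Members, gene lists and tests were chosen with earlier results of these data known. The probe sets named were, by rule, all members with a name, the 10 highest scores, 3 on either side of the limit, the 5 largest called rises and falls from 36 to 48 HAI, and members sharing a cluster. TaAffx.12101.1.S1_at, Ta.1700.1.S1_at and Ta.23167.1.S1_at were picked after their values were seen. Symbols came from the platform annotation and descriptions from the study's tables. Spellings with a hyphen and storage protein symbols were added to the list words afterwards. The defence and wall lists share a chitinase. Bounds set each value under 32 to 32. Alternatives were another value added (1 or 64), a floor of 32, a filter on dim probe sets, 4 scalings, an intensity trend, the replicate block and each array left out. Replicate numbers did not pair the arrays. Genome positions and sequences were not used here.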

Additional observations from a re-analysis of the deposited data

How the results depend on the processing

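Limits come first. Of the 200 members 86 had a mean intensity under 32 at 12 HAI, where the depth of a trough is not measurable, and the rule chose the deepest values, so scores were lower on arrays that took no part in the choice. Each stage has 3 arrays, and counts of calls moved with the scaling of the arrays.

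All 15 arrays were left out in turn. The members called lower at 48 against 36 HAI then ran from 32 to 51, those called higher from 4 to 13, members kept from 135 to 200, the median score from 1.83 to 1.94, the median of 48 minus 36 HAI from -0.44 to -0.33 and of 36 minus 24 HAI from 0.18 to 0.24, and members with a score over 0 stayed at 200, which the choice of members largely fixes. Over all probe sets, calls ran from 5330 to 6067 higher and 5966 to 7595 lower (12 against 0 HAI), 7265 to 8409 and 7846 to 9308 (24 against 12), 914 to 1672 and 1151 to 1897 (36 against 24), and 2027 to 3537 and 2248 to 3462 (48 against 36).

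With arrays scaled to poly-A controls, 115 members were lower and 1 higher at 48 against 36 HAI, 77 members were kept, the median score was 0.85, and the medians were -1.04 for 48 minus 36 HAI and 0.66 for 36 minus 24 HAI. With hybridization controls 3 were higher, 114 were kept, the median score was 1.40 and the median of 48 minus 36 HAI was -0.64. With 64 added, 16 were higher, 121 were kept and the median score was 1.26, and with 1 added the values were 6, 111 and 2.52. The median score was 1.63 with equal array medians and 1.75 after quantile normalization.

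Over all probe sets, 9681 were higher and 2828 lower at 12 against 0 HAI with equal medians, 11219 and 1442 with hybridization controls, and 24793 and 561 with poly-A controls, where 6194 and 7802 were called as deposited. At 24 against 12 HAI 5317 were lower with hybridization controls. At 36 against 24 HAI 2361 were higher with 64 added, 2378 with the floor of 32, 10725 with poly-A controls and 2303 with an intensity trend, and 2911 were lower with the floor, 1203 with equal medians, 539 with hybridization controls, 758 with poly-A controls and 2957 with the trend. At 48 against 36 HAI 2046 were higher with equal medians, 449 with hybridization controls and 506 with poly-A controls, and 17749 were lower with poly-A controls. The cause of these shifts was not tested.

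Signs of 48 minus 36 HAI turned in single probe sets. With poly-A controls LOC543317 became -0.21, LOC543330 -0.63, LOC543422 (Ta.62.1.S1_x_at) -0.61 (limma adjusted p = 0.000678), Ta.10.1.S1_a_at -0.70 (limma adjusted p = 0.0201), TaAffx.15327.1.S1_at -0.17 and Ta.10.2.S1_x_at -0.41. With hybridization controls LOC543330 became -0.21, Ta.62.1.S1_x_at -0.19 and Ta.10.1.S1_a_at -0.28, and Ta.10.1.S1_a_at was -0.0063 after quantile normalization. Leaving out an array in turn gave -0.28 to 0.070 for LOC543292 (above 0 without 36 HAI replicate 3 or 48 HAI replicate 1), -0.95 to 0.25 for Ta.11090.1.S1_at (above 0 without 36 HAI replicate 3 or 48 HAI replicate 3) and -0.026 to 0.053 for Ta.10.1.S1_a_at (below 0 without 36 HAI replicate 1 or 2 or 48 HAI replicate 3). Of 29 probe sets followed through the alternatives, 15 were called, and 6 of these kept their call in all 25.

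With the replicate block, 45 members were lower and 9 higher at 48 against 36 HAI. Over 30 pairs of same-numbered arrays the correlation of deviations was -0.03 to 0.05, so the arrays share only a number, and the block changed no count of calls by over 1.5 times.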
